A study of Mus musculus with 16 samples.

Results

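Binding of the myogenic transcription factor MyoD was compared between cultured mouse muscle stem cells treated with small interfering RNA (siRNA) against the long noncoding RNA LncMyoD and control cells, using 4 chromatin immunoprecipitation (ChIP) libraries out of the 16 samples of the study. The 4 were chosen by antibody: 2 control libraries and 2 knockdown libraries, each with 1 peak list called by the authors on that library alone. The cells were satellite cells, which are muscle stem cells, taken from the hindlimb of C57BL/6 mice and grown in F10 medium with horse serum, and the siRNA treatment lasted 48 h. Knockdown cells are labelled LncMyoD-KD. The treatment text names siRNA against LncMyoD for every sample, and the treatment of the controls is not stated there. Animal ages, the number of animals and whether replicates came from separate cultures are also not given, so the spread between replicates may be technical. No measurement of LncMyoD RNA was analysed here, so the extent of the knockdown was not checked.

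MyoD is a basic helix-loop-helix protein that pairs with E proteins and binds E-boxes, short DNA elements with the letters CANNTG, of which the forms CAGCTG and CAGGTG are those MyoD is best known for. In satellite cells it marks commitment to the muscle lineage and drives genes of the contractile apparatus, the acetylcholine receptor and cell fusion, together with myogenin and the Mef2 factors. LncMyoD is a noncoding RNA encoded next to Myod1. The comparison asked where MyoD was bound when this RNA was targeted.

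The 4 lists held 65137 peaks, of which 64791 lay on chromosomes 1 to 19 and X. Peaks that overlapped or touched were merged into 24264 regions. A region was present in a library if it held at least 1 of its peaks, and its strength there was the largest fold enrichment over background that the authors' peak caller gave to a peak in it. Fold enrichments belong to their own list and were compared between libraries only as ranks. Library depth is unknown, since the lists carry no read counts. A region was assigned to the gene it overlapped, or to the nearest within 50 kb.

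Of the muscle and pathway genes with a promoter sequence, 20 had their promoter under a MyoD region of all 4 libraries. The sequences below, from RefSeq on the GRCm38.p6 assembly (mm10), are the 250 bases before the start site of 6 of these. They were chosen after their values were seen, from those with an E-box and most summits inside the window, and are shown because the letters under the peaks, and the place of the peak summits relative to them, can be read from them directly. Each runs 5′ to 3′ along the gene's strand, and capitals mark every CANNTG. Tpm2 (beta-tropomyosin) covers chr4:43523555-43523804 on the minus strand, Chrna1 (alpha subunit of the muscle acetylcholine receptor) chr2:73580339-73580588 on the minus strand, and Chrng (the receptor's fetal gamma subunit) chr1:87205561-87205810 on the plus strand. Des (desmin, the muscle intermediate filament) covers chr1:75360042-75360291, Musk (the kinase that organises the neuromuscular synapse) chr4:58285712-58285961 and Myog (myogenin) chr1:134289754-134290003, all on the plus strand.
Tpm2: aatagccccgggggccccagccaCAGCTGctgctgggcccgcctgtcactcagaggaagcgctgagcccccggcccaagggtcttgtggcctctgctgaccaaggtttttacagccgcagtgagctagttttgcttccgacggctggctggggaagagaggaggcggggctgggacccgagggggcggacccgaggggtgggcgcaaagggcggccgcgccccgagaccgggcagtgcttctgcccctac
Chrna1: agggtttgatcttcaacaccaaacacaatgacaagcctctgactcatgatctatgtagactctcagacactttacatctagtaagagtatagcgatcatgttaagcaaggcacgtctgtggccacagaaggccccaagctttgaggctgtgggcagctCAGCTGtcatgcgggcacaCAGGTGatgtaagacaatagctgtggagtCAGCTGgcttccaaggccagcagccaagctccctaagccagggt
Chrng: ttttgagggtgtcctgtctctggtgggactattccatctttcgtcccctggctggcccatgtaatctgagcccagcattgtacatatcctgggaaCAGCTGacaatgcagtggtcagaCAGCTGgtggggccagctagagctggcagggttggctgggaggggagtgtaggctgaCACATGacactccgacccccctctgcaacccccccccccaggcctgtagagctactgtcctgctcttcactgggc
Des: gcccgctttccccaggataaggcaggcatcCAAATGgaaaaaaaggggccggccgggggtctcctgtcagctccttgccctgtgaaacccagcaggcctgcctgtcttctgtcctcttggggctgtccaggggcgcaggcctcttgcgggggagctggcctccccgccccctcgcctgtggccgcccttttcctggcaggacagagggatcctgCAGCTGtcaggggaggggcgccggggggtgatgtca
Musk: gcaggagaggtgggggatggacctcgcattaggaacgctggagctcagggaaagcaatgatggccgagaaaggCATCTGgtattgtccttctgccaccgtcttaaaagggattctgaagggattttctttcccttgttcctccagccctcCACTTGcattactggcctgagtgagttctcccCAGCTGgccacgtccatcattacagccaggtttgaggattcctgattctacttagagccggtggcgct
Myog: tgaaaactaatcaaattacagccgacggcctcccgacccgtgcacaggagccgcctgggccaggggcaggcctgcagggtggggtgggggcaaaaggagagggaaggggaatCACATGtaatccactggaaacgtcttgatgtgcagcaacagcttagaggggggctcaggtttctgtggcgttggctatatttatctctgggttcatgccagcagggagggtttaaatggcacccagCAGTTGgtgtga

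Positions here count from the first base of the gene, with negative numbers upstream. In Tpm2 the single CAGCTG began at -227, and the summits of control 1, control 2, knockdown 1 and knockdown 2 lay at -198, -239, -229 and -196. Chrna1 held CAGCTG at -92 and -44 and CAGGTG at -73, and its summits lay at -90, -66, -67 and -95. Summits of both groups thus fell among the E-boxes of the Chrna1 promoter. Chrng carried CAGCTG at -155 and -132, with summits at -189, -105, -169 and -187. Des carried CAGCTG at -36, with summits at 6, -71, -90 and -38. Musk carried CAGCTG at -68, with summits at -120, -46, -106 and -45. The Myog sequence held neither CAGCTG nor CAGGTG on either strand, but had CACATG at -138 and CAGTTG at -12. Its summits lay at -117, -59, -97 and -135, from the first of these E-boxes to the stretch between them. Other bound promoters differed: Myh1 had no CANNTG in its window, Mamstr and Tgfbr2 had none in the 250 upstream bases, and the summits of Acta1, Lama2 and Myh1 lay farther upstream than the window, at -614, -926 and -493 in control 1.

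All promoters with a sequence were then counted. Among 32619 RefSeq windows of 300 bases (250 before to 50 after a start site), 949 overlapped a MyoD region of all 4 libraries, and 49.9% of these held CAGCTG. The share was 16.4% of all windows and 14.4% of the 30611 windows under no MyoD region. CAGGTG, read on both strands and so including CACCTG, was in 27.9% of the bound windows, 20.3% of all windows and 19.8% of those under no region. CANNTG of any kind, which includes both forms, was in 85.4%, 72.3% and 71.6%. The 131 windows under a region of both controls and neither knockdown library were close to the windows bound in all 4, with CAGCTG in 46.6% and CAGGTG in 29.8%. Only 6 windows lay under a region of both knockdown libraries and neither control. Windows of neighbouring start sites overlap, so these shares are descriptions of the sequence table.

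Knockdown summits lay as near to the E-box as control summits did. In bound windows with a single CAGCTG and a summit inside the window, the median distance from the summit to the middle of the motif was 29.5 bp in control 1 (252 windows), 28.5 bp in control 2 (252), 29.5 bp in knockdown 1 (257) and 27.5 bp in knockdown 2 (250). The knockdown values fell inside or 1 bp below the control range. With a single CAGGTG or CACCTG the medians were 42, 39.5, 37 and 45.5 bp in the same order, and with a single CANNTG of another core 71.5, 62, 68 and 55.5 bp. Summits were therefore closest to CAGCTG in each of the 4 libraries.

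**Figure D1:**
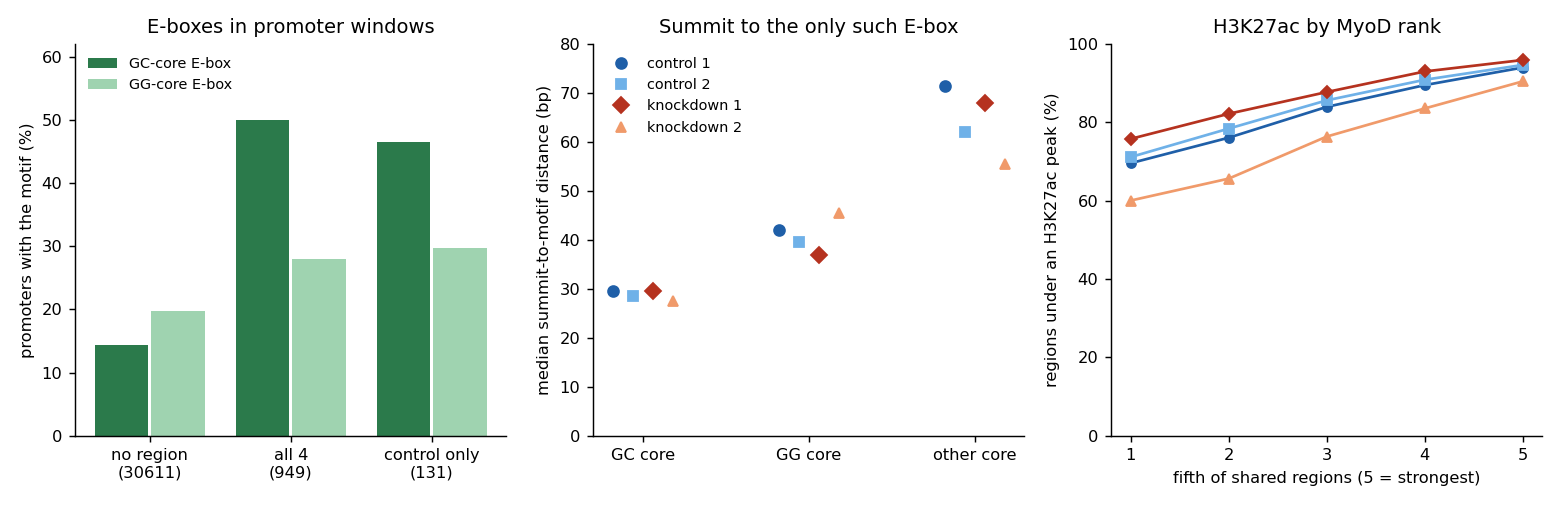
Left, percent of RefSeq promoter windows with CAGCTG (GC core) or CAGGTG (GG core) under no MyoD region, a MyoD region of all 4 libraries or a region of the controls only; middle, median distance in bp from the MyoD summit to the only E-box of each kind, 1 point per MyoD library; right, percent of shared MyoD regions under an H3K27ac peak in each of the 4 H3K27ac libraries (same colours), by quintile of MyoD rank. CAGCTG is in 49.9% of windows bound in all 4 libraries against 14.4% of unbound ones, and the 4 libraries' distances to it lie between 27.5 and 29.5 bp.

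Fewer MyoD regions were called in the knockdown libraries, and knockdown 2 had the fewest. Control 1 had 17604 regions, control 2 had 17470, knockdown 1 had 16296 and knockdown 2 had 12938. Both knockdown counts were below both controls, and the 2 knockdown libraries differed from each other by more than knockdown 1 differed from either control. In peaks, the controls averaged 17641 ± 117 (SD, n = 2) and the knockdown libraries 14754.5 ± 2384 (SD, n = 2). A two-sided exact permutation test of this difference gave p = 0.333, the smallest p that the 6 ways of assigning 2 against 2 libraries allow. Covered length followed the same order, with 6.75, 6.84, 6.12 and 4.65 Mb. As a description of each list, the median fold was 6.61, 6.37, 6.63 and 6.66 and the highest 48.2, 54.3, 49.4 and 47.8. Peaks with a fold of at least 5 numbered 13250, 12835, 13206 and 10999, or 74.8%, 73.1%, 80.3% and 84.2% of their lists. A shorter list holds fewer weak peaks, so these medians and shares depend on list length and do not compare binding between libraries.

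Of the 24264 regions, 9909 (40.8%) had a peak in all 4 libraries, and these were the strong ones, with a median fold of 8.36. A peak in both controls and in neither knockdown library was found in 1104 regions (4.55%), and the reverse in 177 (0.729%). Their median folds were 5.13 and 5.31, so both sets came from the weaker end of the lists. Regions of a single library were more numerous, with 2315 in control 1, 2365 in control 2, 1837 in knockdown 1 and 914 in knockdown 2. Another 2056 regions were missing from knockdown 2 alone, 669 from knockdown 1 alone, 338 from control 2 alone and 330 from control 1 alone. When each list was shortened to its strongest 13069 peaks, the length of the knockdown 2 list, control-only regions numbered 518 and knockdown-only regions 377. The 1104 against 177 therefore changed by more than 2 times on each side with list length.

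**Figure D2:**
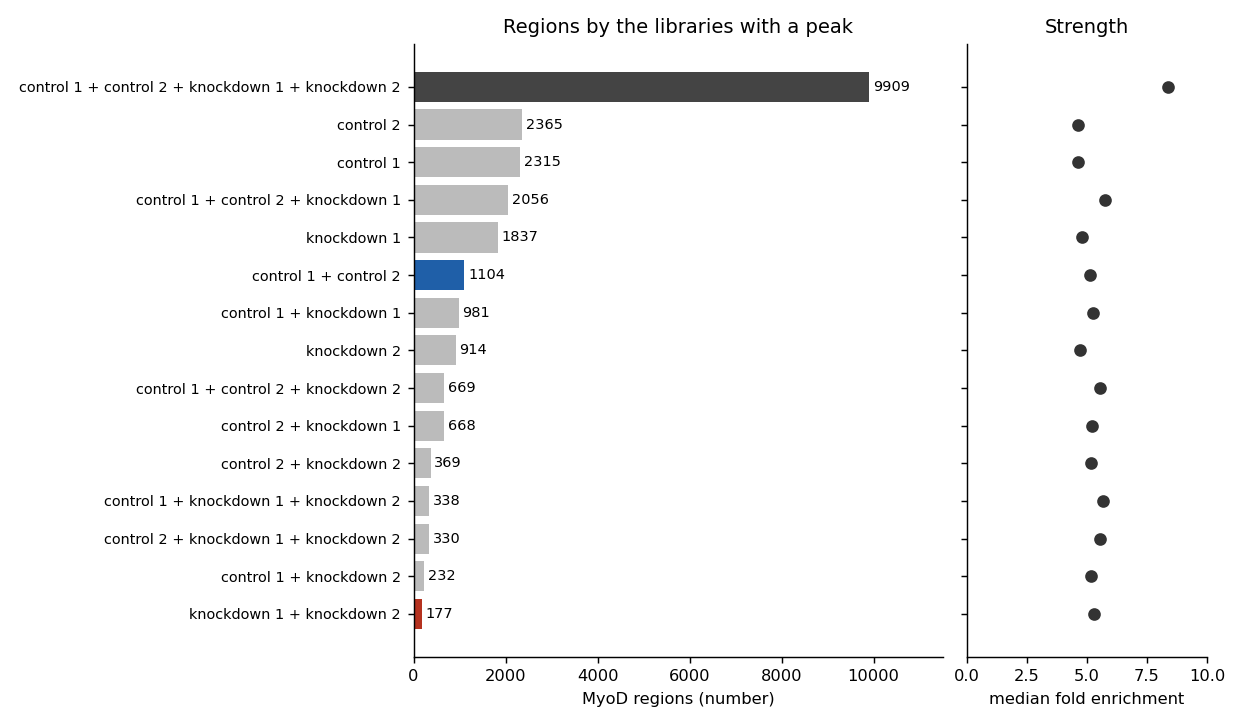
Number of MyoD regions (left) and their median fold enrichment (right) for each combination of libraries with a peak; dark grey, all 4; blue, both controls only; red, both knockdown libraries only. Regions of all 4 libraries number 9909 and have the highest median fold, 8.36, while every other combination lies below 6.

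Regions bound in both libraries of one group were mostly found again in the other. Of 13738 regions of both controls, 87.1% had a peak in knockdown 1, 77.0% in knockdown 2 and 92.0% in at least 1 of them. Of 10754 regions of both knockdown libraries, 95.3% had a peak in control 1, 95.2% in control 2 and 98.4% in at least 1. Of all regions of control 1, 78.0% were found in control 2, 75.5% in knockdown 1 and 63.3% in knockdown 2, and of those of knockdown 1, 66.0% were found in knockdown 2. A shorter list can hold fewer of another list's regions. The strongest regions were among the shared ones. The highest mean rank with a gene was in Olfml2b, an olfactomedin-like extracellular protein, at chr1:170655290-170656393 inside the gene, with control folds of 48.2 and 46.7 and knockdown folds of 49.4 and 43.9. The region of Mamstr, a coactivator of Mef2 factors, had folds of 36.0, 31.8, 40.5 and 31.7.

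Control-only regions were spread over many genes. P3h2, a collagen prolyl hydroxylase, had the most, 5 of its 11 regions, while 3 others were present in all 4 libraries. Gnaq (a G protein alpha subunit), Rgmb (a co-receptor of bone morphogenetic proteins), Rbms3 (an RNA-binding protein), Sh3pxd2a (a podosome scaffold) and Nfix (a nuclear factor I transcription factor) had 3 each. No gene had more than 2 knockdown-only regions, and Bcl7c, Mad1l1 and Il33 had 2. The strongest control-only region lay inside Pakap at chr4:57611232-57611611, with folds of 9.58 and 7.95. The strongest knockdown-only region lay inside Ube3b, a ubiquitin ligase gene, at chr5:114405054-114405578, with folds of 7.21 and 8.60.

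Seen by gene, 8660 of the 21628 genes in the RefSeq table had at least 1 MyoD region in some library, and 5028 had 1 in every library. The controls had regions at 7130 and 7166 genes and the knockdown libraries at 6727 and 5874. Of these genes, 326 had a region in both controls and none in either knockdown library, and 46 had the reverse. The first set included Cd300c, D830031N03Rik, Gm51965 and Mcam, a cell adhesion molecule of perivascular cells (7.14 and 7.95). The second was led by Wsb2 (largest folds 7.74 and 5.88, in different regions), Try4, Zfp950, Numbl and Vgf.

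To compare strength without ranks that depend on list length, the 9909 shared regions were ranked within each library. Each library thus ranked the same regions from 0 to 100, where 100 is the strongest. Which regions are shared still depends on list length. The 1104 control-only regions and the 2056 missing from knockdown 2 alone, for example, were not ranked or tested. No region passed limma with Benjamini-Hochberg adjustment, which called 0 of 9909 (0%), with a smallest adjusted p of 0.949. At an unadjusted p under 0.05 there were 334 regions. Both knockdown ranks lay below both control ranks in 1577 regions (15.9%) and above both in 1625 (16.4%). The median of the knockdown minus control difference was 0.0404 percentile points. Every library ranks the same regions from 0 to 100, which centres all libraries alike, so the balance of lower and higher regions and the median near 0 follow from the scale and do not bear on an overall shift. The SD of the difference between the 2 group means was 14.3 points over regions. Between single libraries it was 19.4 points for the controls and 21.9 points for the knockdown libraries, values that are larger than for means because single libraries are not averaged. Leaving out knockdown 2, limma did call regions, with knockdown 1 assumed to vary as the controls did. That fit ranked another set, the regions shared by the remaining libraries, and rests on 1 knockdown library.

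The same regions ranked within each whole list gave another picture. On that scale, which the lists' lengths enter, both knockdown ranks lay below both controls in 2586 regions and above in 810, and the median difference was -3.70 points. Limma called 0 regions on this scale too. Neither scale gives the size of an overall shift, since the first removes any shift common to all regions and the second carries the list lengths.

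**Figure D3:**
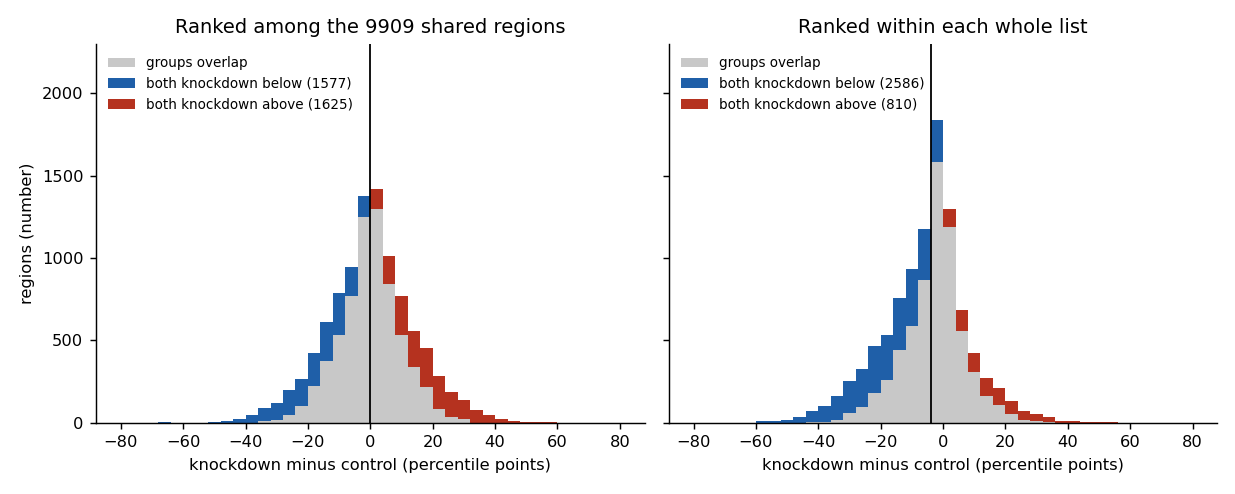
Histograms of the knockdown minus control rank difference in percentile points for the 9909 shared regions, ranked among themselves (left) or within each whole list (right); blue and red mark regions whose 2 knockdown ranks both lie below or above both control ranks, and the vertical line is the median. The left panel holds 1577 lower and 1625 higher regions, the right one 2586 and 810.

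Library pairs ranked the shared regions about equally alike whether or not they came from one group. Spearman's rho over the 9909 regions was 0.775 between the controls and 0.711 between the knockdown libraries. Between groups it was 0.771 and 0.732 for control 1 against knockdown 1 and 2, and 0.739 and 0.755 for control 2. These values describe regions of 4 libraries and share the regions' local properties, such as mappability and background. Summits were equally close: the median distance between the summits of a region was 39 bp for the controls, 38 bp for the knockdown libraries and 37 to 39 bp for the 4 pairs between groups. By quintile of mean rank, from weakest to strongest, the SD of the knockdown minus control difference was 12.3, 17.6, 18.1, 13.8 and 6.40 points. Ranks are bounded at 0 and 100, so both end quintiles have less room to differ and these SDs do not rank stability. Over all shared regions 453 ranked at least 25 points lower and 437 at least 25 points higher.

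The 10 regions with the smallest unadjusted p in each direction are given as descriptions, since none passed the adjusted threshold. At the start of Ranbp10, a Ran-binding protein gene, the region chr8:105833594-105834239 had control folds of 20.2 and 24.9 and knockdown folds of 10.4 and 8.51. Its ranks were 96.0, 98.7, 65.6 and 58.2, a difference of -35.4 points (SE 5.68; limma adjusted p = 0.949). Inside Flnc, the muscle filamin of the Z-disc, the region chr6:29435769-29436934 ranked 96.6 and 91.0 for the controls against 76.8 and 76.0. Flnc was the member of the muscle lists with the smallest p. Inside Maml1, a coactivator of Notch and of Mef2c, the folds were 19.2 and 17.2 against 13.1 and 11.8. Near Plau, the urokinase protease, ranks were 95.9 and 87.8 against 69.7 and 76.0. Larger differences stood at Tmem260 (79.9 and 96.1 against 32.7 and 8.13) and Mroh1 (66.6 and 78.4 against 4.23 and 10.4). The other lower regions belonged to Tmprss13, Atp8a2, Spats2l and Rimbp3.

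Of the 10 named regions with higher knockdown ranks, 7 had both control ranks under 14, while the 1625 higher regions as a whole were spread over the quintiles of mean rank (373, 332, 323, 304 and 293). Inside Dst, the cytoskeletal linker dystonin, control ranks were 2.27 and 2.43 and knockdown ranks 38.5 and 51.5. Ppfibp1, Nhsl1, Lyn (a Src family kinase), Pcsk4, Ptprd (a receptor phosphatase) and Stk39 were the others of the 7. Ston2, Atp6v0a2 (a subunit of the proton pump) and Cep128 instead had control ranks of at least 73.5. At Atp6v0a2 the control folds were 15.8 and 14.2 and the knockdown folds 21.0 and 19.6, and the ranks 89.2, 86.0, 96.2 and 96.8 (difference 8.91, SE 2.49; limma adjusted p = 0.949).

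**Figure D4:**
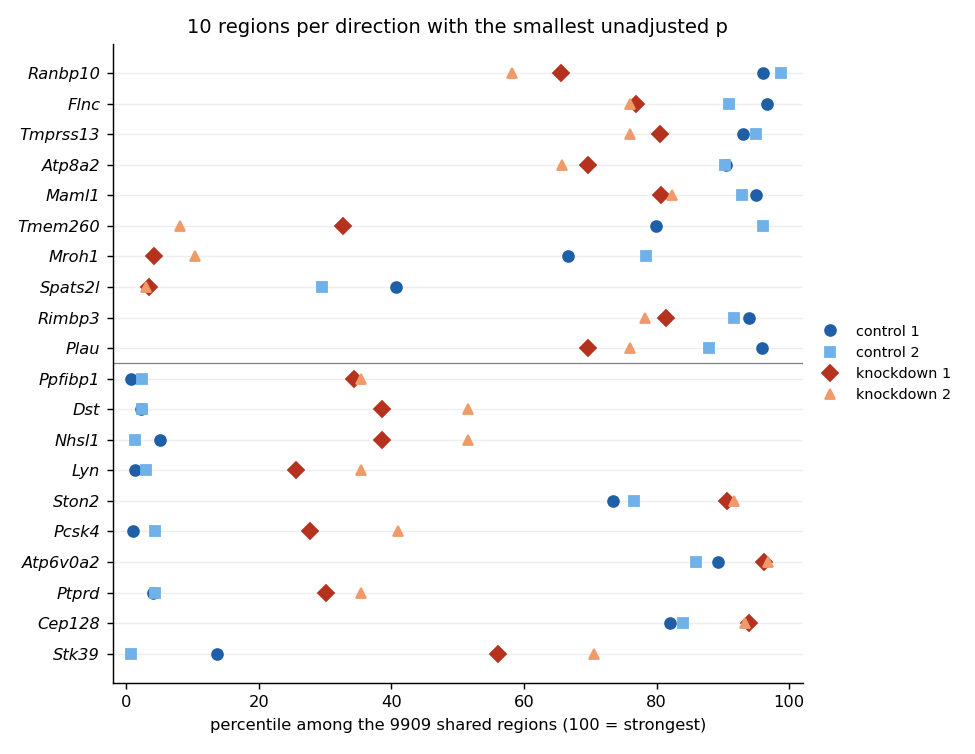
Percentile rank among the shared regions (x axis, 100 is the strongest) in each of the 4 libraries for the 10 regions per direction with the smallest unadjusted limma p, labelled by gene; the line divides lower from higher. The groups do not overlap in any of the 20, by the way they were chosen, and none passed the adjusted threshold.

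Each gene was given its strongest region in each library, which could be a different region from library to library. On the ranks of the 5028 genes of all 4 libraries, limma again called 0 genes (0%; smallest adjusted p 0.979; 170 at an unadjusted p under 0.05). Each fit that left out 1 library did call genes, but ranked another set of genes and rests on a lone library in 1 group. Knockdown ranks lay below both controls at 799 genes (15.9%) and above both at 817 (16.2%). With ranks within whole lists these numbers were 1347 and 386. Ranbp10 led the lower genes here too, with ranks of 93.6 and 97.7 against 56.7 and 48.7. It was followed by Rbm12b1, Tmem260, Tmprss13, Mknk2 (a kinase of the initiation factor eIF4E), Rnf39, Rcc1 (the Ran exchange factor), Maml1, Trim47 and Vgll3, a cofactor of TEAD factors. The higher genes were Atp6v0a2, Exoc3l, Lgr6, Sppl3, Ankrd13a, Pycr1, Zfand2a, Cep128, Serpinf1 and Pcsk4. At Serpinf1, which encodes the secreted pigment epithelium-derived factor, ranks were 8.63 and 22.6 for the controls against 55.5 and 64.6.

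The genes MyoD is known to act on were then read by role, on the gene scale unless a region is named. No gene of any list passed limma's adjusted threshold, so the values are given as levels. Over all 21628 genes, 19895 regions had a gene; 42.5% of them were shared, 970 control-only and 137 knockdown-only. Of the 8453 shared ones, 1373 ranked lower and 1373 higher in both knockdown libraries. Each list's counts of shared, control-only and non-overlapping regions are to be read beside these. In the muscle and pathway lists 1 region was knockdown-only, at Col5a1.

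Among the myogenic regulatory factors, MyoD and its relatives, Myod1 had 7 regions within 50 kb, 5 of them in all 4 libraries. From the far upstream end to the start site, the first shared region, chr7:46348659-46349386, lay 27.1 kb from the gene and had folds of 14.3, 14.2, 11.8 and 8.62 in control 1, control 2, knockdown 1 and knockdown 2. Its ranks among regions were 85.9, 86.0, 74.3 and 60.2 (difference -18.7, SE 7.41; limma adjusted p = 0.949). The next, 25.9 kb away, ranked 88.8, 92.3, 87.0 and 83.9, also lower in both knockdown libraries. The regions at 22.6 kb and 10.2 kb overlapped between groups, with ranks of 91.2, 96.7, 95.3 and 73.3 and of 83.3, 50.6, 76.1 and 72.1. The one at the start site was weak, with folds of 5.62, 6.95, 6.53 and 6.27. Of the 5 Myod1 regions, 2 ranked lower in both knockdown libraries and none higher, beside 15.9% and 16.4% of all shared regions. The only Myog region, over the promoter printed above, had folds of 16.9 and 11.6 in control 1 and 2 and 5.05 in knockdown 1, and ranks among regions of 91.8, 74.8, 7.06 and 78.3. The low value was that of knockdown 1, and knockdown 2 lay between the controls. Myf5 had 1 weak region, in control 2 (4.31) and knockdown 1 (4.42), and Myf6 had none.

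The Mef2 factors, partners of MyoD, ranged from strongly to weakly bound. Mef2a had its strongest region at folds of 19.3, 27.5, 34.6 and 34.9, higher in both knockdown libraries. Another Mef2a region, 38.4 kb from the gene, ranked lower in both, with region ranks of 32.6 and 57.6 against 12.9 and 3.66. Mef2c (11.9, 9.94, 12.2 and 9.80) and Mef2d (9.91, 5.96, 9.95 and 6.27) overlapped between groups, and the one weak region of Mef2b was control-only (4.30 and 3.97). Tcf12 and Tcf4, E proteins that pair with MyoD, had folds of at least 21.1 in each library. Of the 17 shared regions of the E protein and Id genes, 2 ranked lower and 2 higher without overlap, beside 1373 each way of the 8453 shared regions with a gene. Pax7, the satellite cell factor, had 9 regions and gene ranks of 44.5, 59.8, 28.7 and 77.1, with the lowest and the highest both from knockdown libraries.

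Genes of myoblast fusion gave mixed values. Mymk, the fusion protein myomaker, had control ranks of 91.1 and 83.6 and knockdown ranks of 78.9 and 75.3, and both of its regions ranked lower in both knockdown libraries. Mymx, its partner myomixer, had ranks of 86.9, 29.8, 66.4 and 76.3, with the controls farthest apart. Cdh15, the M-cadherin of satellite cells and myoblasts, was among the strongest genes, with control folds of 30.1 and 25.5 and knockdown folds of 40.2 and 41.1. In 3 of its 4 regions both knockdown ranks lay above both controls, the widest gap being at chr8:122851393-122852184 with region ranks of 34.9 and 63.4 against 79.8 and 82.3 (difference 31.9, SE 13.7). Over all shared regions 16.4% ranked higher in this way, and the 4 regions lie within 1 gene. Of 36 regions of the 10 fusion genes, 21 were shared and 4 control-only, at Cdh2, Dysf, Myof and Ninj1. Over all regions with a gene, 42.5% were shared and 970 of 19895 control-only. The median difference over the shared ones was 0.737 points, against 0.0202 over all regions with a gene.

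At acetylcholine receptor and synapse genes, 9 of 10 had a region and 16 of 23 regions were shared. Chrna1 was the strongest of the receptor subunits, with folds of 20.5, 19.5, 24.3 and 17.2. Rapsn, the receptor-clustering protein, had 19.8, 23.8, 22.3 and 22.3, and neither gene separated the groups. Dok7, an activator of Musk, ranked 94.20 and 91.05 for the controls against 85.38 and 91.03, so knockdown 2 and control 2 nearly tied. On the region scale its strongest region overlapped between groups (96.4 and 94.2 against 90.2 and 94.3). Musk ranked higher in both knockdown libraries (48.6 and 46.3 against 55.5 and 58.0). Of the 16 shared regions 1 ranked higher without overlap and none lower, beside 16.4% and 15.9% of all shared regions.

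The contractile genes had no common direction. In the thick filament, 25 of 35 regions were shared, with 4 ranked lower and 5 higher without overlap and a median difference of 0.368 points, beside 1373 each way of 8453 and 0.0202 points over all regions with a gene. By the largest fold in each library, Myl1 (a light chain; 19.8, 16.2, 18.8 and 14.1), Mybpc1 (myosin-binding protein C; 16.9, 16.2, 16.9 and 13.7) and Myom1 (M-band myomesin; 24.8, 24.5, 27.3 and 23.5) were the strongest. At Myl1 and Mybpc1 these folds came from more than 1 region. The strongest Mybpc1 region had 16.9, 16.2, 13.3 and 13.7 and ranked lower in both knockdown libraries. The strongest Myl1 region had 19.8, 16.2, 18.8 and 11.8. Myh3, the embryonic myosin, had 5 regions, all shared, and gene ranks of 87.7, 74.7, 88.7 and 88.1. In the thin filament 21 of 44 regions were shared, 6 lower and 2 higher, with a median of -5.29 points, beside the same 1373 each way of 8453. Another 3 were control-only, at Neb, Tpm1 and Tpm2. Neb, the giant nebulin, ranked 62.7 and 68.4 against 61.2 and 42.5. Tpm2, whose promoter is printed above, ranked 95.8 and 94.6 against 96.0 and 98.0, so the direction differed within the list. Tnnt2, a troponin T, was low in knockdown 1 only, with ranks of 39.5, 41.0, 5.87 and 42.5. Among Z-disc and cytoskeleton genes, 17 of 27 regions were shared, 2 lower and 4 higher, beside the same 1373 each way of 8453. By gene, 0 of 11 ranked lower and 4 of 11 higher in both knockdown libraries, beside 15.9% and 16.2% of all genes. Actn3, the fast-fibre actinin, had folds of 21.1, 19.9, 25.1 and 18.6, and the strongest Flnc region had 24.5, 23.5, 21.4 and 24.3, unlike the second Flnc region described above.

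Excitation-contraction coupling genes, which handle calcium, mostly overlapped between groups. Of the 12 genes of this list with a region in all 4 libraries, Atp2a1, Ryr1 and Trdn ranked lower in both knockdown libraries and Jph2 higher. That is 3 of 12 lower and 1 of 12 higher, beside 15.9% and 16.2% of all genes; whether the list stands apart was not tested. Atp2a1, the calcium pump of fast fibres, ranked 81.7 and 77.3 for the controls against 63.9 and 46.8 (difference -24.1). Ryr1, the calcium release channel, ranked 86.9 and 84.8 against 81.5 and 80.6, and Trdn, which anchors the release complex, 84.8 and 78.8 against 70.5 and 73.0. Jph2, which ties the membranes of the triad together, ranked 76.6 and 78.8 against 84.9 and 88.9. The list had 20 shared regions of 41, 4 lower and 1 higher (15.9% and 16.4% over all shared regions), a median of -3.50 points and 3 control-only regions. Of the muscle energy genes, Aldoa, the glycolytic aldolase, ranked 60.1 and 54.2 against 45.4 and 25.1, and Ckb, brain-type creatine kinase, 98.1 and 96.1 against 99.4 and 99.0. The muscle creatine kinase genes Ckm and Ckmt2 had no region.

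**Figure D5:**
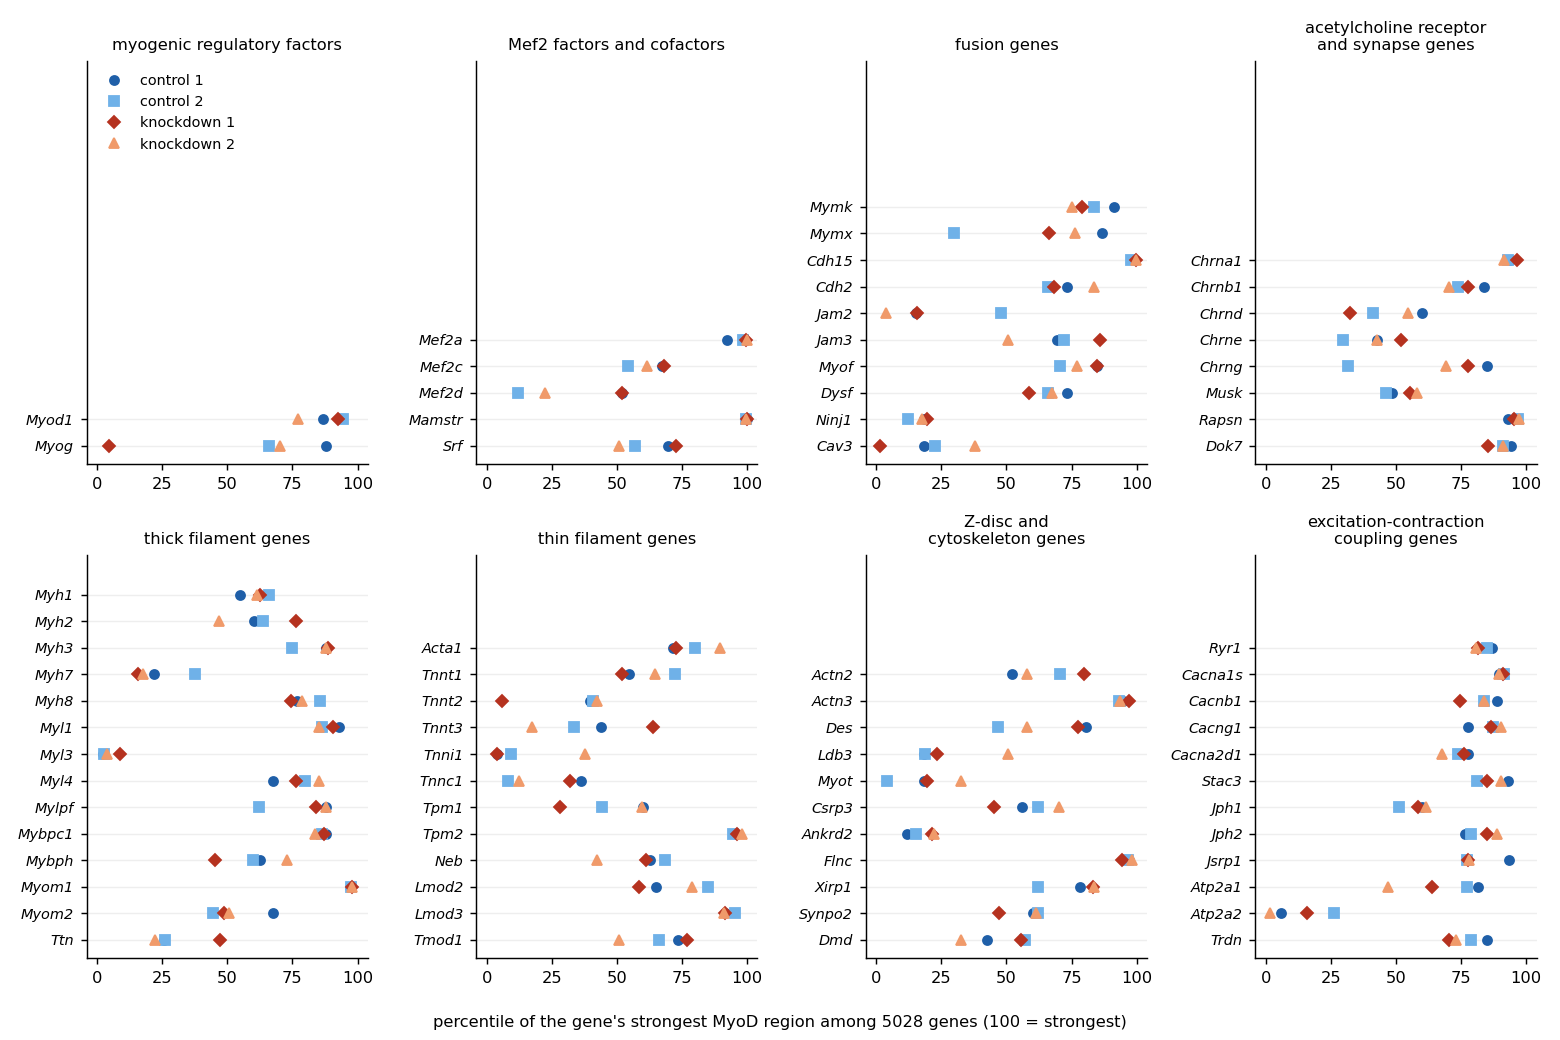
Percentile rank of each gene's strongest MyoD region among the 5028 genes of all 4 libraries (x axis, 100 is the strongest), 1 point per library, for muscle genes by role. The strongest region was taken separately in each library. Control and knockdown points interleave for most genes, and Myog and Tnnt2 are low in knockdown 1 only. Both knockdown points lie below both controls at Atp2a1, Trdn and Mymk, among others. They lie above both controls at Mef2a, Cdh15, Musk, Xirp1 and Jph2, among others.

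Genes of cell cycle exit were weakly bound except Ccnd3 (cyclin D3; folds 19.8, 18.9, 16.8 and 18.9), Ccnd1 (19.8, 12.9, 9.21 and 13.3) and Rb1. The inhibitor gene Cdkn1a, a known MyoD target, had a single peak, in knockdown 1 (5.16). Of the 10 replication and mitosis genes, 2 had a region, Mcm2 and Mki67. The IMP and IGF genes, growth regulators, had 20 shared regions of 57, 2 lower and 2 higher (15.9% and 16.4% over all shared regions), and 4 control-only. In this list Igf2r (27.4, 24.5, 23.2 and 23.1) and Igf1r (19.2, 18.9, 20.3 and 15.3) were strongest, and Igf2bp2 ranked 85.9, 68.4, 78.9 and 75.3. Irs2 ranked lower in both knockdown libraries (69.5 and 58.4 against 55.5 and 37.8). Akt2 (29.2 and 26.1 against 38.6 and 50.7) and Igf2bp3 (0.587 and 2.60 against 15.8 and 12.3) ranked higher in both. Igf2bp3 had no region in all 4 libraries, so its ranks compare different regions, with weak folds of 3.97, 4.64, 6.26 and 5.49. Akt2 had 5, 7, 4 and 2 regions in the 4 libraries, and 1 of its regions was control-only. In the Notch pathway, which holds satellite cells undifferentiated, 26 of 51 regions were shared, 1 lower and 4 higher, beside 15.9% and 16.4% of all shared regions. Control-only regions of this pathway numbered 4. Dll1, a Notch ligand, had folds of 25.8, 20.2, 27.6 and 22.7, and Notch1 ranked 85.9 and 84.8 against 90.8 and 87.2. Among satellite cell surface and quiescence genes, 35 of 58 regions were shared, 6 lower and 5 higher, beside 15.9% and 16.4% of all shared regions. Another 4 were control-only. Met, the receptor of hepatocyte growth factor, was strongest there (28.7, 35.4, 32.4 and 27.8). Ncam1 ranked lower in both knockdown libraries (92.9 and 91.6 against 85.5 and 85.1), as did Foxo3, while Cxcr4 and Itgb1 ranked higher in both. Cxcr4 also had 2 control-only regions of its 5.

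In matrix and TGF-beta genes 24 of 63 regions were shared, 2 lower and 3 higher (beside 15.9% and 16.4% of all shared regions), and 6 were control-only. Tgfbr1, a TGF-beta receptor, ranked 9.99 and 8.22 for the controls against 41.9 and 42.5, the widest higher difference of any list gene (33.1 points). Its fold enrichments were modest, with 5.65, 5.62, 8.84 and 7.84. Of the AP-1 genes Fos was the strongest (15.5, 17.6, 16.9 and 16.5). Among MyoD cofactor and chromatin genes 11 of 29 regions were shared, 1 lower and 4 higher, beside 15.9% and 16.4% of all shared regions. Of the 6 genes with a region in all 4 libraries, 0 ranked lower and 4 higher, beside 15.9% and 16.2% of all genes. Only genes with a region in every library are ranked. This list had a region at 10 and 9 genes in the controls and at 8 and 6 in the knockdown libraries. Over all genes these numbers were 7130, 7166, 6727 and 5874. Smarcd3, the muscle subunit of the SWI/SNF remodelling complex, stood at 26.2, 23.5, 28.4 and 26.3, and that region ranked higher in both knockdown libraries. Ep300 had a control-only region (5.95 and 6.62).

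Shares of regions by position in the genome lay close together in the 4 libraries. Regions within 1 kb of a gene end made up 13.5% and 13.8% of the control lists and 12.4% and 13.1% of the knockdown lists (difference -0.855 points; two-sided exact permutation p = 0.333, the smallest possible). Regions inside genes made up 47.6%, 47.5%, 48.0% and 47.7%, and those over 50 kb from a gene 15.8%, 15.5%, 16.1% and 16.3%. The gene-end share was thus lower, and the share over 50 kb away higher, in both knockdown libraries. With 2 libraries per group the test cannot decide whether position differed. Presence patterns differed more by place: 42.7% of 3084 gene-end regions were shared, 6.58% were control-only and 0.454% knockdown-only, while of 4369 regions over 50 kb from a gene 33.3% were shared, 3.07% control-only and 0.916% knockdown-only. Of the shared regions near gene ends, 18.4% ranked lower and 14.3% higher without overlap, against 14.0% and 17.3% over 50 kb away.

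Most shared MyoD regions lay in acetylated chromatin. H3K27ac, a histone mark of active promoters and enhancers, was mapped in 2 control and 2 knockdown libraries of the same study. Of the 9909 shared MyoD regions, 82.6% and 84.1% overlapped a peak of the control acetylation libraries and 86.9% and 75.2% one of the knockdown libraries, and 73.9% overlapped peaks of all 4. The 2 knockdown acetylation libraries lay on either side of the controls. The share with all 4 peaks was 42.8% for control-only MyoD regions, 36.2% for knockdown-only ones and 26.0% for regions of a single MyoD library. Median widths were 507 bp for shared regions, 331 bp for control-only, 300 bp for knockdown-only and 221 to 233 bp for single-library ones. A wider region overlaps a peak more readily, so these shares also depend on width. The share with all 4 peaks went from 58.3% in the lowest quintile of shared MyoD regions by rank to 90.0% in the highest. Shared regions that ranked lower without overlap had 77.1% and those that ranked higher 72.9%, near the 73.9% of all.

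Markers of other cell types were read the same way, since a culture from muscle can hold other cells. A MyoD peak at a gene does not show that the gene is expressed. Of 6 fibro-adipogenic marker genes 2 had a region and Pdgfra, Ly6a, Dcn and Lum had none. Of 4 immune markers only Adgre1 had a peak, in knockdown 2, and Ptprc, Cd68 and Csf1r had none. Smooth muscle and pericyte markers had 9 regions, 3 of them shared and 3 control-only, at Tagln, Mcam and Abcc9. Over all regions with a gene, 42.5% were shared and 970 of 19895 control-only, to be read beside the counts of each marker list. Rgs5 ranked lower in both knockdown libraries (76.6 and 83.6 against 74.6 and 32.7). All 6 endothelial markers had a region. Of their 16 regions 8 were shared, 1 lower and 1 higher (beside 15.9% and 16.4% of all shared regions), and 1 was control-only, at Tek. Tek had the highest control folds (23.1 and 21.9), and that region ranked lower in both knockdown libraries (97.9 and 97.1 against 90.9 and 97.0). Knockdown 2 and control 2 nearly tied there. Schwann and neural markers had 4 shared regions of 8 and 1 control-only, at Pmp22. Among housekeeping genes 4 of 10 had a region, and Actb ranked 53.6 and 26.1 for the controls against 57.1 and 67.7. The marker genes of the muscle lineage, Myod1, Myog, Pax7, Des, Cdh15, Chrna1, Mymk, Mymx, Acta1 and Myh3, had a region in all 4 libraries, and Myf5 did not. Whether the cell makeup of the cultures differed between groups was not tested.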

How the data were processed

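MyoD ChIP libraries of 2 control and 2 knockdown replicates were compared. Per the submitters' processing notes, peaks came from MACS2 2.1.1 on mm10, with Bowtie2 2.3.2, SAMtools 1.3, Picard 2.9.2 and bedtools 2.26.0 also named; tool options are not stated. The deposited lists give for each peak a fold enrichment, a linear ratio made by the authors' caller, −log10 of its p-value and q-value, and a whole-number score. The deposited score was not analysed. The smallest deposited −log10 q was 1.31. H3K27ac peaks were used by position only, and the 8 input libraries and 346 peaks on other sequences were not analysed.

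Peaks were merged at a gap of 0 bp. The largest fold per region was ranked within each library, among the regions of all 4 libraries (main scale) and within the whole list. Ranks were fitted with limma 3.58.1 (R 4.3.3; intensity trend, Benjamini-Hochberg over all regions or genes, threshold 0.05); single values had exact permutation tests. The fit was also run on simulated data, with an outcome not given here, so how small a difference it could detect is not stated. Genes (21628, RefSeq GRCm38.p6) came with 25 lists of 261 genes, all matched, and 168 of 225 muscle and pathway genes had a promoter sequence. Named were the 10 regions and the 10 genes per direction with the smallest limma p, the 10 genes per direction with most regions of one group or with regions in one group only (some leading ones are given), and members of the lists. The comparison, lists and rules were chosen with earlier results of these data known. Alternatives were stricter peaks (−log10 q of at least 5), a 1000 bp merge gap, equal peak numbers, ranks by −log10 p, normal scores, no trend, summits within 150 bp, other gene windows, a replicate block and leaving out each library. Some items these rules name are not reported here.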

Additional observations from a re-analysis of the deposited data

How the results depend on the processing

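With 2 libraries per group and no read counts, depth is unknown and a difference must exceed the spread of 2 lists. Equal peak numbers gave 518 control-only and 377 knockdown-only MyoD regions, against 1104 and 177. Ranks within whole lists gave 2586 regions lower and 810 higher in the knockdown without overlap, against 1577 and 1625, and 1347 and 386 genes, against 799 and 817. Leaving out 1 library at a time gave 1773 to 3487 control-only and 508 to 2015 knockdown-only regions, 3189 to 4110 regions lower and 3247 to 4081 higher, and 1583 to 1913 genes lower and 1621 to 2015 higher; with 1 library on one side, fewer samples must agree. Limma then called 0 to 37 regions, the 37 without knockdown 2, and 2 to 16 genes: 2 with control 1 left out, 3 with control 2, 16 with knockdown 1 and 10 with knockdown 2. In these fits the lone library was assumed to vary like the other group. The mean summit distance between groups minus within groups was -0.5 bp, and -1 to 1 bp in these fits. With the replicate number as a block, limma called 0 regions and 0 genes (smallest adjusted p 0.900 and 0.0502); deviations of equally numbered libraries correlated at 0.108 over 9909 regions, and 2 pairs do not show that the numbers pair the samples. Outside the fits that left out a library, no alternative called a region or gene, and peak number and gene-end share kept their direction. For the 204 genes and regions followed, 1806 of 1967 differences kept their direction.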

Other observations

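The locus of 2 muscle microRNAs, Mir206 and Mir133b, on chromosome 1 held 4 MyoD regions of all 4 libraries within 20 kb. The strongest, chr1:20669573-20670245, had control folds of 24.8 and 27.8 and knockdown folds of 29.5 and 22.3. The region at 20677844, 0.598 kb from Mir206, had 17.5, 16.2, 17.3 and 19.6, and neither passed the adjusted threshold. A weak region of the same locus, at 20666230, was knockdown-only, with folds of 5.16 and 6.27. The region near Mir499 followed the replicate number and not the group, with control folds of 18.5 and 11.6 and knockdown folds of 17.7 and 10.2.

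The genes with most regions of all 4 libraries, chosen on that number, are given as counts. Gse1 had 34 regions, 23 of them in all 4 libraries and none of one group only, and Msi2, an RNA-binding protein, had 24, with 16 in all 4 and 1 knockdown-only. Auts2 had 14 of 21 and Aopep 12 of 17 regions in all 4 libraries. Other genes with many regions had smaller shares, with 6 of 17 at Sh3pxd2a and 5 of 15 at Rbms3. Rbm24, a muscle splicing regulator, had 2 control-only regions of 6, while its strongest region had folds of 26.4, 26.8, 33.2 and 25.5. Its gene ranks were 98.1 and 98.4 for the controls against 99.5 and 98.4, so a strong region was kept where weaker ones had no knockdown peak.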
